A study of Mus musculus with 11 samples.

Results

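Axon guidance ligands and receptors were followed in primary neurospheres, spheres of dividing neural precursors kept in suspension, grown from the brains of mouse embryos at E15.5. The genes were taken from the deposited expression table by symbol: the class 3 to 7 semaphorins (Sema), plexins (Plxn), the neuropilins Nrp1 and Nrp2, the EphA and EphB receptors, the ephrins (Efna, Efnb), Slit and Robo genes, netrins (Ntn), Dcc and Unc5. This gave 70 protein coding genes of 53453 rows, 34 named as ligands and 36 as receptors. Of these, 48 reached 1 TPM (a transcript abundance scaled for length and library total) in at least 5 of 11 libraries and could be tested, among 13549 tested genes in all. The symbols of 2 of the 70 match although neither is a guidance receptor: Unc50, a membrane protein of the secretory pathway, and Unc5cl, which was listed at 0 in every library.

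Of the libraries, 5 came from embryos labelled as Klf5 overexpression and 6 from untreated control embryos. Klf5 is a Kruppel-like factor, a DNA-binding regulator of transcription. The sources used here do not give the way it was overexpressed, the cells that carried it or the strain of the mice, and both groups were labelled as embryonic brain. Nothing beyond the count of embryos says how the cultures were kept apart, so p-values measure the spread between these libraries. Klf5 itself stood at 53.6 to 93.0 TPM with overexpression and 0.371 to 1.29 TPM in controls. Because TPM is scaled per length, levels can be set side by side between genes, but the values keep no sequencing depth.

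Guidance molecules steer growing axons and migrating cells by attracting or repelling them. Secreted class 3 semaphorins act through a neuropilin that binds the ligand and a class A plexin that carries the signal, while membrane-bound semaphorins mostly bind plexins directly. Ephrins are tethered to the cell surface and bind Eph receptor tyrosine kinases on the neighbouring cell, Slits repel through Robo receptors, and netrins attract through Dcc and repel through Unc5 receptors. In the embryonic brain many of these genes are also used by progenitors and by cells of the oligodendrocyte lineage.

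Klf5 overexpression changed 5 of the 48 tested genes. Nrp2, Plxnb3, Sema3b and Efna3 rose and Sema3a fell, which is 10.4% of those tested, against 3.72% of all tested genes. By direction, 8.33% of the tested guidance genes rose and 2.08% fell, against 2.29% and 1.43% of all tested genes. The test was limma on log2(TPM + 1), two-sided, with Benjamini-Hochberg adjustment over all tested genes and a threshold of 0.05. The median log2 fold change was 0.01 over the 48 genes and -0.04 over all tested genes, with 26 guidance genes above 0 and 22 below. In 4 of the genes every overexpression library lay above every control and in 1 below it, against 1.99% and 1.31% of all tested genes. These shares carry no test, and 2 of the 5 genes passed the filter on low values through a single group: Sema3b reached 1 TPM only in overexpression libraries and Sema3a only in controls, so both had to differ. Fewer cells that express a gene and less RNA per cell cannot be told apart in such bulk libraries.

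**Figure D1:**
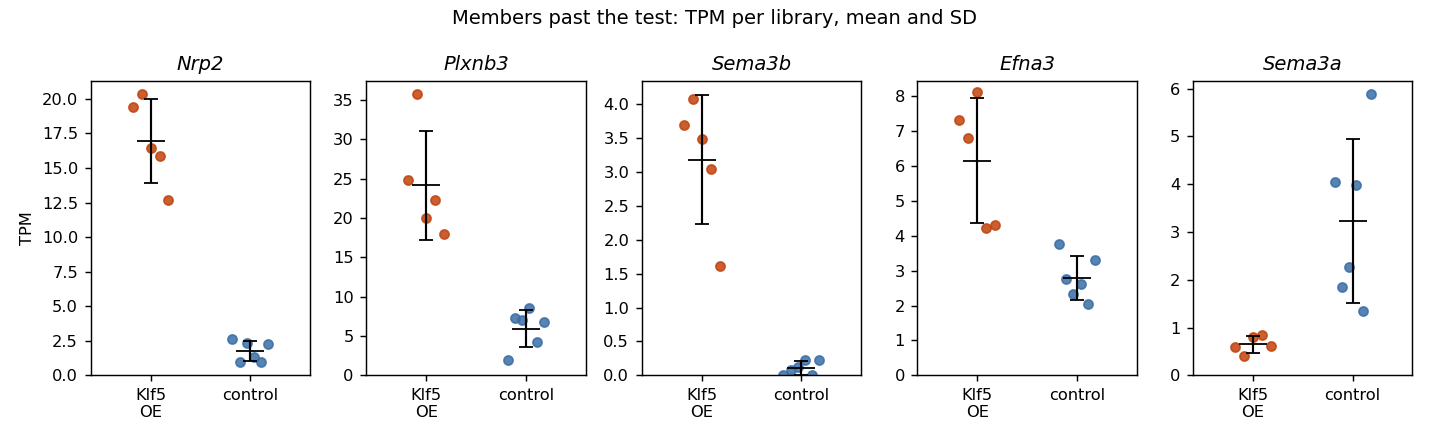
TPM of the 5 changed guidance genes in each library, with Klf5 overexpression (OE, n = 5) at the left and control (n = 6) at the right of each panel; points are libraries, the cross bar is the mean and the whiskers are 1 SD. In all 5 panels the points of the groups do not overlap, and Sema3a is the gene whose overexpression libraries lie below the controls.

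Kruppel-like factors bind GC-rich and CACCC-type DNA, and 4 of the 5 changed genes have a promoter in RefSeq (GRCm38.p6), from 250 bases before to 50 bases after a start site. Their sequences are given because these genes moved in the same libraries as Klf5, with matches to the letters CCNCNCCC, or to its reverse complement GGGNGNGG on the strand shown, in capitals. Efna3 has a pair of windows, and its downstream window and that of Sema3a lie inside the GENCODE span of their gene, at internal starts. Sema3b has none in the table.
Nrp2 (chr1:62703067-62703366, plus strand): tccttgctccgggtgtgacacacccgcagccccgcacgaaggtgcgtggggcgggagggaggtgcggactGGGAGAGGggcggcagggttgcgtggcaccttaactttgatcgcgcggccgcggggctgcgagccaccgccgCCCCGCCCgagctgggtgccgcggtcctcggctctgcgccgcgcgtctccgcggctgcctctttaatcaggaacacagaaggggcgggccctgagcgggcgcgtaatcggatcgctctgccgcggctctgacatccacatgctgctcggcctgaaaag
Plxnb3 (chrX:73756853-73757152, plus strand): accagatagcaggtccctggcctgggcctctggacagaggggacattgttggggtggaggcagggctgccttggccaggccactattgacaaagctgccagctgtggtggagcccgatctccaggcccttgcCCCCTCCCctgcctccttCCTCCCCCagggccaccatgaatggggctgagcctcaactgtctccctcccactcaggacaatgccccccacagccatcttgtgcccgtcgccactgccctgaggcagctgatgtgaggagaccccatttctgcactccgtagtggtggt
Efna3, upstream window (chr3:89322890-89323189, minus strand): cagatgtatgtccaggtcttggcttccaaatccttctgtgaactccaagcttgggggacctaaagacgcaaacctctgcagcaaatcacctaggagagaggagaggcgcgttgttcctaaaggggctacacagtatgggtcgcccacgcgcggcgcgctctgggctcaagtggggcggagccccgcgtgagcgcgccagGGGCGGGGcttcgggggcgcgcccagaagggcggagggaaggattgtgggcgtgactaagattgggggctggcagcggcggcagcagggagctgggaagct
Efna3, downstream window (chr3:89321719-89322018, minus strand): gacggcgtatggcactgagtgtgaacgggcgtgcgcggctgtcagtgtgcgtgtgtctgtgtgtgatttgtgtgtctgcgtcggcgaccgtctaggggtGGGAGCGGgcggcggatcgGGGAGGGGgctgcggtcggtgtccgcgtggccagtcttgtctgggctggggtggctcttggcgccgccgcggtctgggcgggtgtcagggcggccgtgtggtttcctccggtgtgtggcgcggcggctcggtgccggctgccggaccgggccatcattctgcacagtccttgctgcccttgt
Sema3a (chr5:13396534-13396833, plus strand): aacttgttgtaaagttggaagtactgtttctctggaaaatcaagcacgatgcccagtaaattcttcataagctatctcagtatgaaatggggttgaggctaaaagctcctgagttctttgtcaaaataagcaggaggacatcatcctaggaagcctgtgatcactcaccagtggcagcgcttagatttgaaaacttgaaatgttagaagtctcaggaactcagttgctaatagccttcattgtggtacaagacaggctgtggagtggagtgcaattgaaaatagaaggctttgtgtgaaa
Nrp2, Plxnb3 and the downstream Efna3 window each held 2 matches, the upstream Efna3 window 1, and the Sema3a window 0. The GC content was 70.7% for Nrp2, 63.7% for Plxnb3, 64.0% and 69.7% for Efna3 and 41.3% for Sema3a. Such matches are common: 49.5% of all 32851 windows, 69.5% of the 11421 windows of tested protein coding genes and 67 of 76 windows of 60 guidance genes held at least 1. A match is a run of letters and no binding was measured.

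Of 3 tested class 3 semaphorins 1 rose and 1 fell, and of 2 neuropilins 1 rose, against 3.72% called of all tested genes. The 2 semaphorins, Sema3b and Sema3a, passed the filter through the group in which each was higher, so both had to differ. Their share is therefore not a result about the family. Nrp2, the neuropilin that binds Sema3f and Sema3b, had 19.4, 20.3, 16.5, 15.9 and 12.7 TPM in the 5 overexpression libraries, against a lowest, median and highest control value of 0.952, 1.78 and 2.63 TPM. Every overexpression library lay above every control. Overexpression libraries averaged 16.95 ± 3.05 TPM (SD, n = 5) and controls 1.75 ± 0.745 TPM (SD, n = 6), a 9.68-fold ratio. In limma the log2 fold change was 2.73 ± 0.22 (SE; adjusted p = 1.14e-06). Nrp2 (ENSMUSG00000025969) lies on chromosome 1, from 62703285 to 62818695 on the plus strand of GRCm38. Nrp1, the main binding partner of Sema3a, had 0.905, 0.511, 1.98, 1.59 and 1.01 TPM with overexpression and 1.05 to 4.30 TPM in controls (median 1.96), with overlapping groups. It did not pass in limma, with a log2 fold change of -0.51 ± 0.28 (SE; adjusted p = 0.52; 95% interval -1.10 to 0.09).

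The order of the neuropilins was not the same in the groups. Nrp2 stood above Nrp1 in 5 of 5 overexpression libraries, by 14.1-fold in mean TPM, and in 1 of 6 control libraries, where Nrp1 was 1.26-fold above Nrp2. This order is a description, chosen after the values were seen, and was not tested.

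Sema3b, a secreted ligand of the neuropilins, had 3.69, 4.07, 3.49, 3.04 and 1.62 TPM with overexpression, against 0 in control libraries 1 and 5 and at most 0.234 TPM in the rest. No library of either group came near the other group's range. Sema3b passed the filter through the overexpression libraries alone, so the values that the filter used had fixed this order. Overexpression libraries averaged 3.18 ± 0.950 TPM (SD, n = 5) and controls 0.112 ± 0.104 TPM (SD, n = 6). The log2 fold change was 1.88 ± 0.23 (SE; limma adjusted p = 0.000136). On the log2(TPM + 1) scale a rise from so low a level is understated, and with a pseudocount of 0.1 in place of 1 it was 4.06. Sema3b (ENSMUSG00000057969) spans 107597674 to 107609229 on chromosome 9, minus strand.

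Sema3a, the best known of the repellent semaphorins, had 0.592, 0.402, 0.808, 0.835 and 0.618 TPM with overexpression. Controls ran from 1.34 to 5.88 TPM with a median of 3.13 TPM, so the lowest control exceeded the highest overexpression library. Overexpression libraries averaged 0.651 ± 0.177 TPM (SD, n = 5) and controls 3.23 ± 1.71 TPM (SD, n = 6), 4.96-fold lower with overexpression. In limma the log2 fold change was -1.27 ± 0.28 (SE; adjusted p = 0.0152). On the log2(TPM + 1) scale a fall to so low a level is also understated. With a pseudocount of 0.1 in place of 1 the log2 fold change was -2.02. The Sema3a call was lost when all expressed genes were kept (adjusted p = 0.0634 in limma) and when the 4 libraries lowest in protein coding TPM were left out (0.103). The gene (ENSMUSG00000028883) covers 13125414 to 13602565 on chromosome 5, plus strand. Sema3b exceeded Sema3a in 5 of 5 overexpression libraries and Sema3a exceeded Sema3b in 6 of 6 controls. Sema3b reached 1 TPM in every overexpression library and no control, and Sema3a in every control and no overexpression library. The values that the filter used thus fixed this order, which was chosen after they were seen and was not tested.

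**Figure D2:**
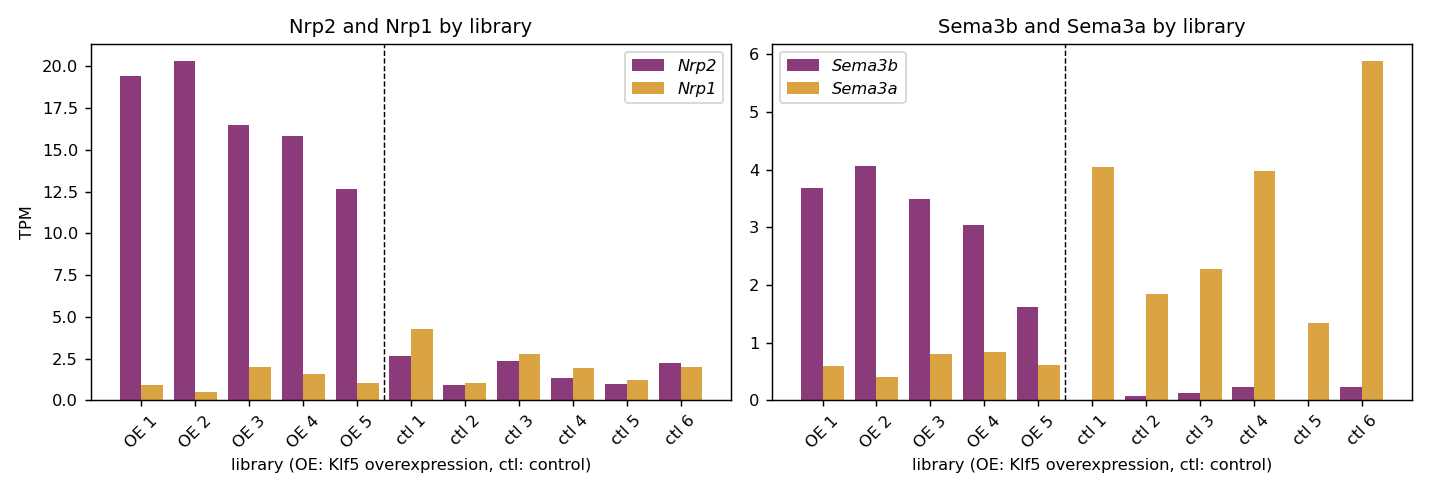
TPM of Nrp2 and Nrp1 (left) and of Sema3b and Sema3a (right) in each library, with the 5 Klf5 overexpression (OE) libraries left of the dashed line and the 6 control (ctl) libraries right of it; each bar is 1 library. Nrp2 is the taller bar of its pair in all 5 overexpression libraries and in 1 control, and Sema3b in all 5 overexpression libraries and no control. Both orders were chosen after the values were seen and were not tested.

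The third tested class 3 ligand, Sema3f, also chosen after its values were seen, had 0.678 to 1.76 TPM with overexpression and 0.474 to 1.18 TPM in controls (limma adjusted p = 0.66). The other 4, Sema3c, Sema3d, Sema3e and Sema3g, stayed below 1 TPM in every library and were not tested. The class A plexins, which signal for the neuropilins, were present in both groups, Plxna4 at a mean of only 0.905 TPM with overexpression and 1.19 TPM in controls. Plxna1, the most abundant, had 24.5 to 40.1 TPM with overexpression and 26.4 to 36.1 TPM in controls, a log2 fold change of 0.06 with a 95% interval of -0.25 to 0.37. Plxna3 averaged 16.7 ± 3.15 TPM with overexpression (SD, n = 5) and 12.2 ± 2.83 TPM in controls (SD, n = 6) and did not pass (log2 fold change 0.43 ± 0.17 SE, limma adjusted p = 0.269). None of the 4 class A plexins was called in limma, and 1 had an unadjusted p under 0.05.

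Of the 5 class B, C and D plexins, which bind membrane semaphorins or Sema3e directly, Plxnb3 alone passed, against 3.72% of all tested genes. Plxnb3, the plexin known as a receptor of Sema5a, had 24.8, 35.7, 19.9, 22.3 and 17.98 TPM with overexpression, against a lowest, median and highest control value of 1.95, 6.86 and 8.53 TPM. The lowest overexpression library was thus above the highest control. Overexpression libraries averaged 24.1 ± 6.95 TPM (SD, n = 5) and controls 5.95 ± 2.40 TPM (SD, n = 6), a 4.06-fold ratio, and the log2 fold change was 1.91 ± 0.27 (SE; limma adjusted p = 0.000494). The gene (ENSMUSG00000031385) lies on chromosome X, 73757090 to 73772514, plus strand. Plxnb3 is known from oligodendrocytes. The 8 oligodendrocyte lineage markers summed to 1709 to 2082 TPM with overexpression and 1651 to 2869 TPM in controls. Most of this sum was Olig1, averaging 1075 and 1375 TPM, and Olig2, averaging 635 and 684 TPM. Of the 7 tested, Cspg4 rose, averaging 123 TPM against 45.7 TPM in controls, and none fell. The part of oligodendrocyte lineage cells in the Plxnb3 result was not tested.

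The other plexins of this group differed less. Plxnb2, a receptor of class 4 semaphorins and the most abundant of the 70 genes, had 149, 106, 125, 135 and 82.4 TPM with overexpression and 94.9 to 129 TPM in controls, a log2 fold change of 0.08 with a 95% interval of -0.23 to 0.39. Plxnb3 rose but stayed below Plxnb2 in all 11 libraries. Plxnb1, the Sema4d receptor, averaged 35.4 ± 7.95 TPM with overexpression (SD, n = 5) and 44.1 ± 7.71 TPM in controls (SD, n = 6) (limma adjusted p = 0.486). Plxnc1, the Sema7a receptor, came close to the threshold, with 3.59, 4.41, 2.86, 6.00 and 4.11 TPM with overexpression and 5.23 to 11.0 TPM in controls. Its groups overlapped at 1 overexpression library, and in limma the log2 fold change was -0.75 ± 0.21 (SE; adjusted p = 0.06). Plxnc1 was called lower with scaling to the protein coding total and with no variance trend, and without overexpression library 4 or control library 2. Plxnd1, the Sema3e receptor, had 1.38 to 6.93 TPM and 2.80 to 7.62 TPM in the overexpression and control groups.

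None of the 9 tested membrane-bound or class 4 to 7 semaphorins passed in limma, and 2 had an unadjusted p under 0.05. Sema5b was the most abundant, at 38.7 ± 9.47 TPM with overexpression (SD, n = 5) and 45.3 ± 7.68 TPM in controls (SD, n = 6) (limma adjusted p = 0.673). Sema6a, a transmembrane ligand of class A plexins, had 29.3 ± 7.93 and 30.01 ± 4.67 TPM in the overexpression and control groups. Sema6c had the largest difference of these, with 14.4, 12.9, 14.3, 22.2 and 9.42 TPM against 2.59 to 11.6 TPM in controls, and its log2 fold change was 0.77 ± 0.30 (SE; limma adjusted p = 0.241). The ligand of Plxnb3, Sema5a, was below the filter, at 0.274 to 0.587 TPM with overexpression and 0.521 to 1.84 TPM in controls, with overlapping groups. Sema4a, also below the filter, ranged from 0.134 to 2.15 TPM and from 0.0986 to 1.78 TPM.

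**Figure D3:**
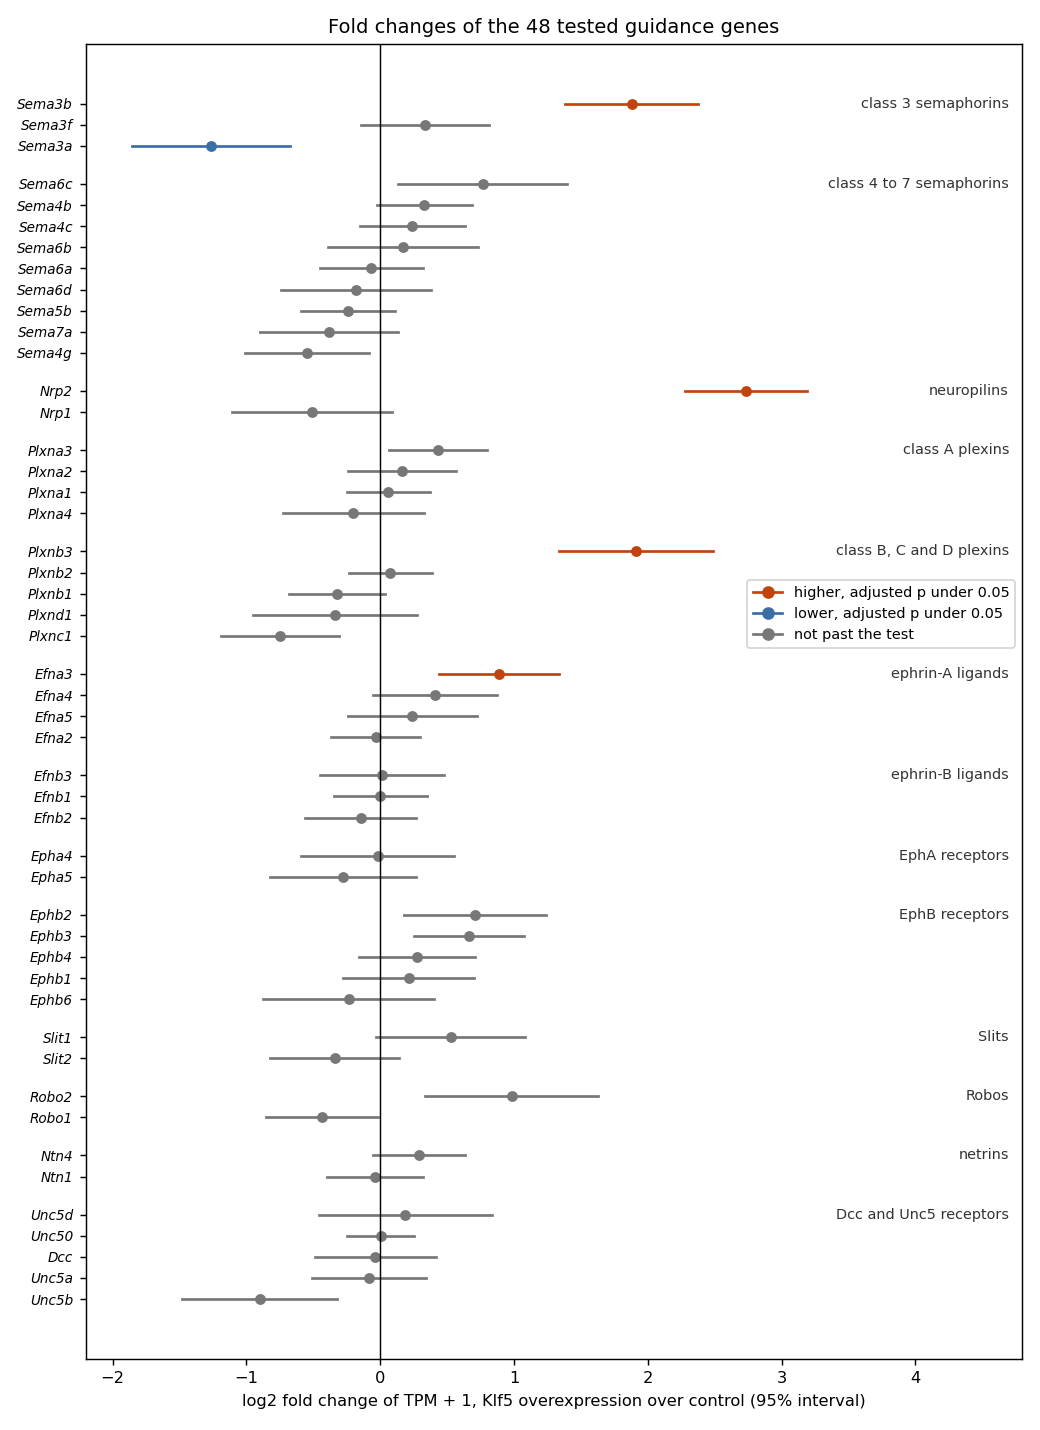
Log2 fold change of TPM + 1, Klf5 overexpression over control, for each of the 48 tested guidance genes, grouped by family; points are limma estimates from 5 and 6 libraries and lines are 95% intervals. Nrp2 at 2.73, Plxnb3 at 1.91, Sema3b at 1.88 and Efna3 at 0.89 lie to the right among the called genes, Sema3a at -1.27 lies to the left, and the intervals of most other genes include 0.

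Of the 4 tested ephrin-A ligands 1 rose, against 2.29% of all tested genes. Efna3, a lipid-anchored ligand of EphA receptors, had 7.32, 6.79, 8.12, 4.21 and 4.30 TPM with overexpression, against a lowest, median and highest control value of 2.04, 2.69 and 3.75 TPM. The groups did not overlap, but 2 overexpression libraries lay within 1 TPM of the highest control. Overexpression libraries averaged 6.15 ± 1.79 TPM (SD, n = 5) and controls 2.80 ± 0.633 TPM (SD, n = 6), a 2.20-fold ratio. The log2 fold change of 0.89 ± 0.21 (SE) had a limma adjusted p of 0.0248, and Efna3 (ENSMUSG00000028039) lies on chromosome 3, 89313899 to 89322965, minus strand. This was the least firm of the 5 calls: leaving out overexpression library 1, 2 or 3 or control library 3 or 5 ended it, and over the 11 such fits the limma adjusted p ran from 0.0182 to 0.0756. It was also lost when all expressed genes were kept (0.0775) and without the 4 libraries lowest in protein coding TPM (0.0911).

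The other ephrins did not pass. Efna2 had 12.9 ± 1.71 and 13.3 ± 2.32 TPM, and Efna4 11.9 ± 4.55 and 8.36 ± 1.54 TPM, in the overexpression and control groups (SD, n = 5 and 6; limma adjusted p = 0.981 and 0.501). Efnb1, Efnb2 and Efnb3, transmembrane ligands of EphB receptors, had log2 fold changes of 0.00, -0.15 and 0.01, each with an adjusted p of 0.889 or more. None of the 3 had an unadjusted p under 0.05.

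The EphB receptors were the more abundant Eph class in these cultures, and none of the 5 passed in limma, with 2 at an unadjusted p under 0.05. Ephb3 had 52.5, 37.9, 38.6, 37.6 and 23.2 TPM with overexpression, against 18.2 to 33.0 TPM in controls with a median of 21.7 TPM. Of the 5 overexpression libraries, 4 lay above all controls. The log2 fold change was 0.66 ± 0.19 (SE) and the limma adjusted p 0.0804. Over the 11 fits with 1 library left out this p ran from 0.0147 to 0.182, and with all expressed genes kept it was 0.233. Ephb3 was called higher with trimmed-mean scaling (0.0205), quantile normalization (0.0222) and scaling to the protein coding total (0.0162), and without overexpression library 5 (0.0147) or control library 4 (0.0367). Ephb2 averaged 10.5 ± 4.10 TPM with overexpression (SD, n = 5) and 5.89 ± 1.86 TPM in controls (SD, n = 6) (limma adjusted p = 0.175). Ephb4, known from blood vessels as the receptor of Efnb2, had 13.9 ± 4.77 and 11.0 ± 2.21 TPM (adjusted p = 0.706). Endothelial markers were near 0 in both groups, with 7 genes summing to 0.301 to 0.651 TPM with overexpression and 0.0154 to 1.28 TPM in controls.

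Of 9 EphA receptors only Epha4 and Epha5 reached the filter. Epha4 had 0.917 to 2.26 TPM with overexpression and 0.717 to 3.26 TPM in controls, and Epha5 1.15 to 4.49 and 2.02 to 4.15 TPM (limma adjusted p = 0.998 and 0.796). Just below the filter, Epha2 had 1.95, 4.12, 1.17, 0.844 and 0.919 TPM with overexpression and 0.115 to 0.816 TPM in controls, so its groups did not overlap. Its ligand Efna1 had 1.65, 1.29, 1.06, 0.608 and 0.334 TPM with overexpression and 0 to 0.413 TPM in controls, overlapping at 1 overexpression library. In a limma fit without a filter, which added 20 of the 22 guidance genes below it, none was called and 4 had an unadjusted p under 0.05. In that fit the adjusted p was 0.0821 for Efna1 and 0.201 for Epha2.

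**Figure D4:**
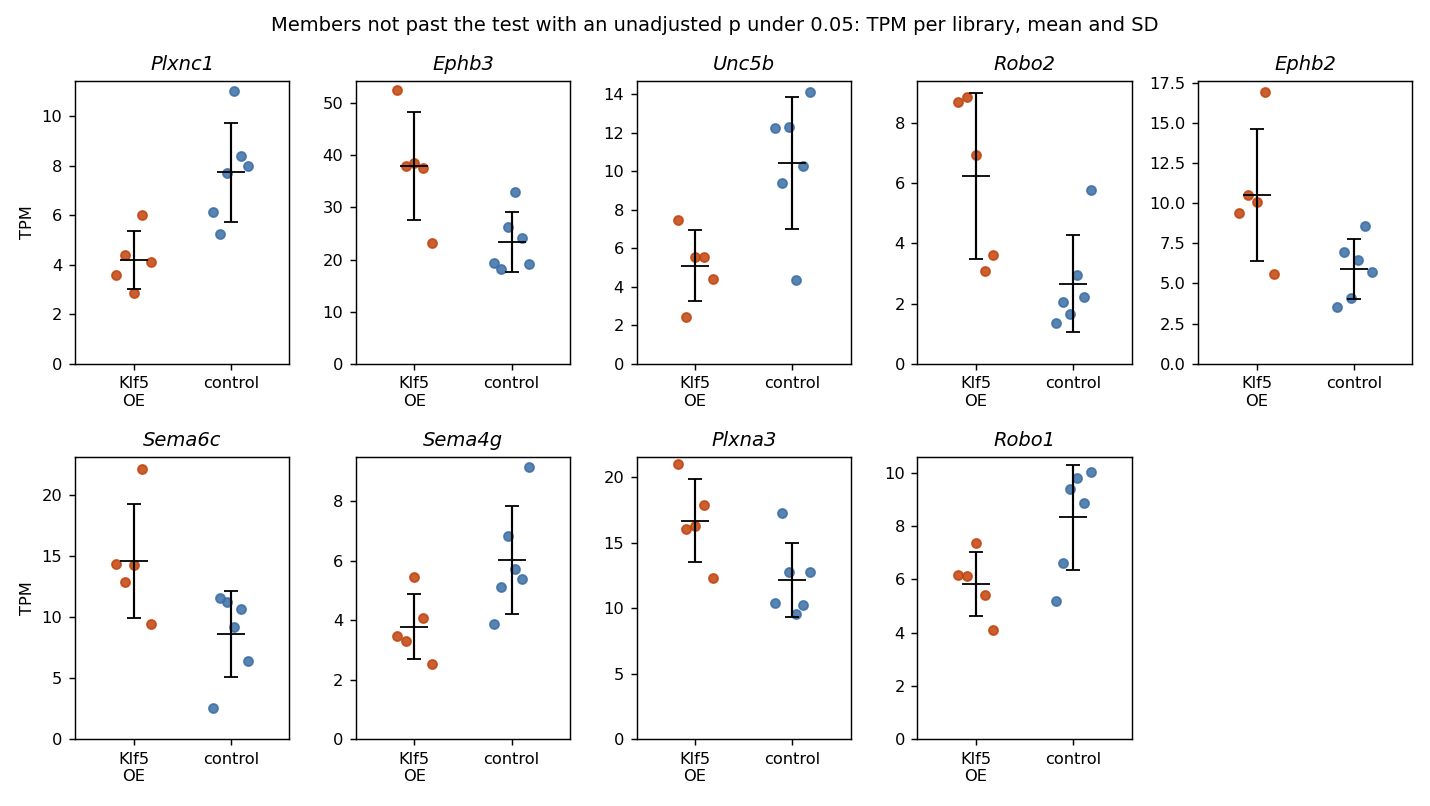
TPM per library of the 9 tested guidance genes that did not pass the adjusted test but had an unadjusted limma p under 0.05, with Klf5 overexpression (OE, n = 5) at the left and control (n = 6) at the right of each panel; the cross bar is the mean and the whiskers are 1 SD. The groups overlap in every panel; Plxnc1, Unc5b, Sema4g and Robo1 have lower means with overexpression, and Ephb3, Robo2, Ephb2, Sema6c and Plxna3 higher means.

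None of the 4 tested Slit and Robo genes passed in limma, and Robo1 and Robo2 had unadjusted p under 0.05 with fold changes of opposite sign. Robo2 had 8.72, 8.88, 6.93, 3.09 and 3.62 TPM with overexpression, against a lowest, median and highest control value of 1.36, 2.12 and 5.78 TPM. Control library 6, the highest, reached into the overexpression range. The log2 fold change was 0.98 ± 0.31 (SE; limma adjusted p = 0.107), and without control library 6 Robo2 was called higher (0.0313). Over the 11 fits with 1 library left out the limma adjusted p ran from 0.0313 to 0.274. Robo1 had 6.15, 6.12, 7.37, 5.43 and 4.09 TPM against 5.17 to 10.03 TPM in controls, and its log2 fold change was -0.44 ± 0.20 (SE; limma adjusted p = 0.367). Robo2 stood above Robo1 in 2 of 5 overexpression libraries and in 0 of 6 controls, an order chosen after the values were seen. The ligand Slit1 had 5.61 to 20.4 TPM with overexpression and 4.53 to 11.4 TPM in controls, and Slit2 0.673 to 1.69 and 1.27 to 2.83 TPM (limma adjusted p = 0.447 and 0.652). Robo3, Robo4 and Slit3 were below 1 TPM in every library.

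The 6 tested netrins and netrin receptors, and Unc50, also held no changed gene, and 1 had an unadjusted p under 0.05 in limma. Ntn1, the founding attractant of this family, was the second most abundant guidance gene, at 61.1 ± 15.3 TPM with overexpression (SD, n = 5) and 62.3 ± 12.8 TPM in controls (SD, n = 6); the 95% interval of the log2 fold change was -0.40 to 0.32. Ntn4, a netrin of basement membranes, had 30.8 ± 7.51 and 24.6 ± 2.97 TPM (limma adjusted p = 0.525). The receptor Dcc had 2.15 to 3.21 TPM with overexpression and 1.79 to 4.54 TPM in controls, and its log2 fold change was -0.04 ± 0.21 (SE). The repulsive receptor Unc5b had 7.49, 2.44, 5.57, 5.55 and 4.40 TPM with overexpression, against 4.35 to 14.1 TPM in controls with a median of 11.2 TPM. Of the 6 controls, 5 lay above all overexpression libraries, and the exception was control library 4. Without that library the limma adjusted p of 0.0969 became 0.0122. Over the 11 fits with 1 library left out it ran from 0.0122 to 0.249. Without the 4 libraries lowest in protein coding TPM it was 0.591. The log2 fold change with all libraries was -0.90 ± 0.27 (SE). Unc50, which is not a netrin receptor, had 46.2 ± 7.76 and 45.7 ± 2.58 TPM.

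**Figure D5:**
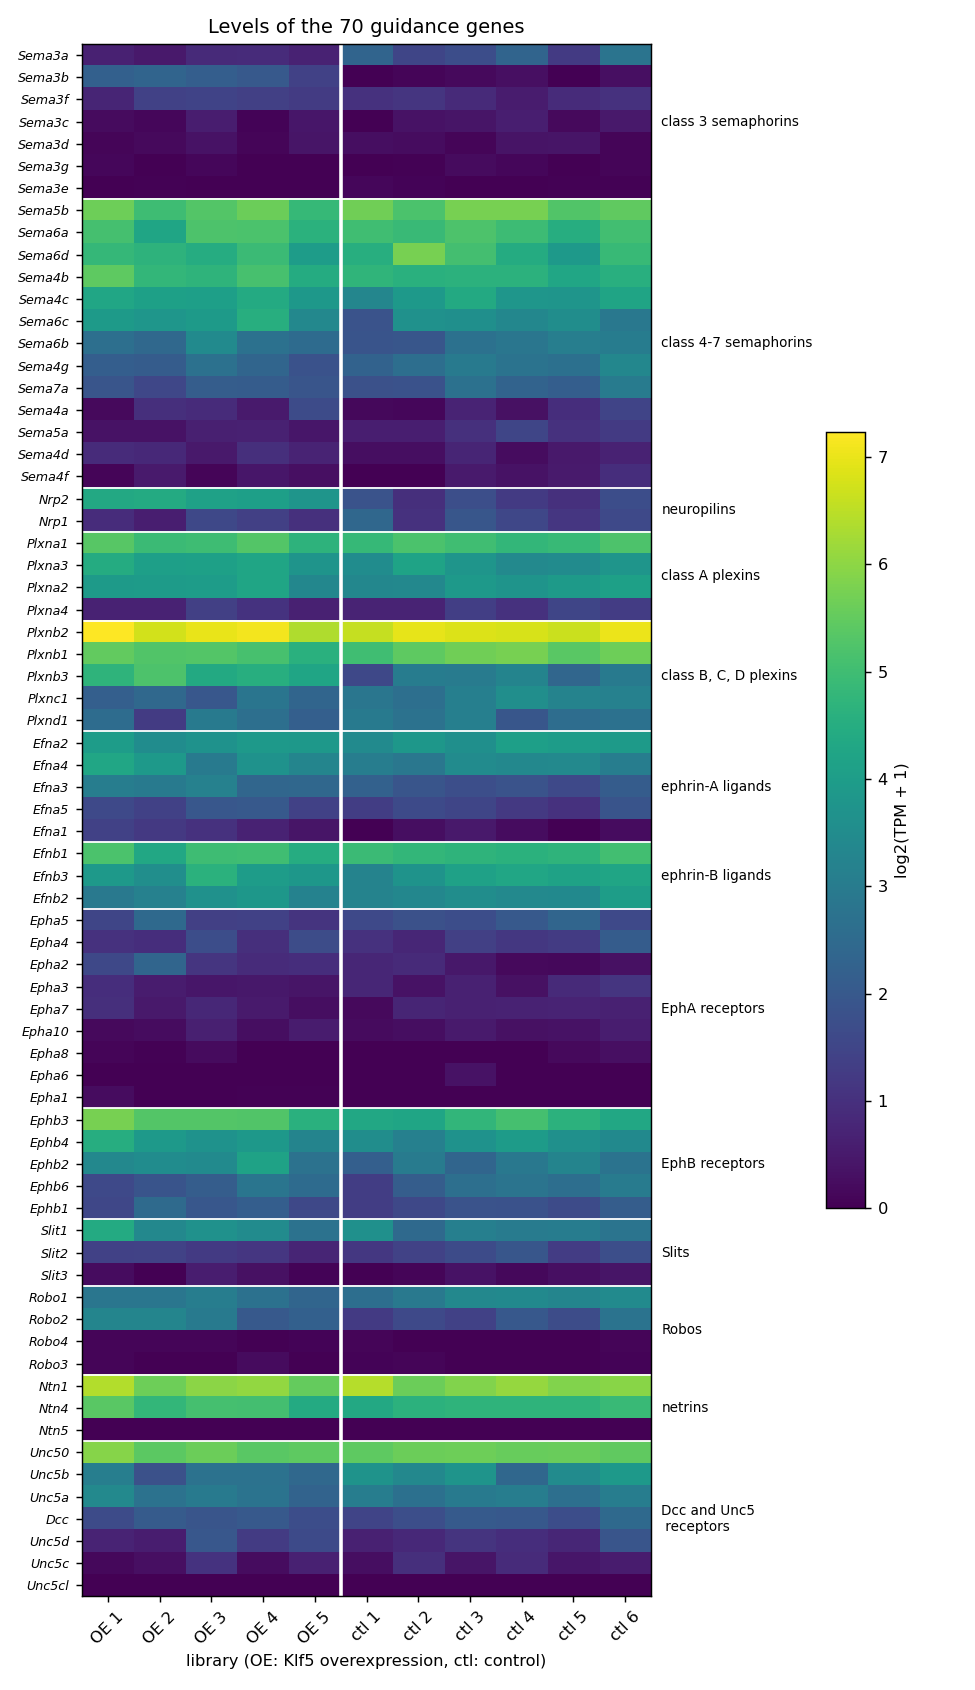
Levels of all 70 guidance genes as log2(TPM + 1) in each library, with rows grouped by family and ordered by mean within it, the 5 Klf5 overexpression (OE) libraries left of the white line and the 6 control (ctl) libraries right of it. Plxnb2 is the brightest row throughout, and the rows of Nrp2, Sema3b and Plxnb3 are brighter left of the line.

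Across the whole set, levels ran from 0 to 149 TPM, and 13 of the 70 genes exceeded 10 TPM in all 11 libraries. Of the 22 genes below the filter, 16 never reached 1 TPM in any library; the 6 that did were Epha2, Sema5a, Efna1, Sema4a, Epha3 and Unc5c, the last 2 with maxima of 1.15 and 1.08 TPM. Closest above the filter were Sema3b and Unc5d, with 5 libraries at 1 TPM or more. The median coefficient of variation over the tested genes was 29.0% with overexpression and 27.7% in controls, but the spread was not alike throughout. The most abundant genes, such as Sema6a (27.1% against 15.6%), varied more with overexpression. Some lower ones, such as Sema7a (20.9% against 42.9%), varied less. The SD of the guidance total was 146 TPM with overexpression and 55.8 TPM in controls. Overexpression library 5 had the lowest guidance total, 574 TPM, and library 1 the highest, 961 TPM; control totals ran from 650 to 786 TPM. Protein coding genes made up 61.5 to 78.2% of the listed TPM with overexpression and 61.0 to 71.7% in controls. With TPM scaled to the protein coding total all 5 changed guidance genes stayed called, and without the 4 libraries lowest in protein coding TPM 3 did, with Efna3 and Sema3a lost.

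Intracellular partners and further cues were counted as 2 lists. Both were chosen with earlier results of these data known, so their shares of called genes carry no test. Of 58 tested intracellular effectors of 63 listed, 1 rose and 2 fell, or 5.17%, against 3.72% of all tested genes. Limk1, a kinase that inactivates cofilin, rose to 20.3 ± 4.47 TPM (SD, n = 5) with overexpression, against 11.9 ± 2.24 TPM (SD, n = 6) in controls (log2 fold change 0.72 ± 0.18 SE; limma adjusted p = 0.0317). Kalrn and Grip1, an adaptor of ephrin-B ligands and glutamate receptors, fell, with log2 fold changes of -1.36 and -0.96 and limma adjusted p of 0.0456 and 0.0466. These 3 calls were not firm. Limk1 was lost without overexpression library 1, 3 or 4 or control library 1, 3 or 6 (adjusted p 0.0103 to 0.1 over the 11 fits), and Grip1 without overexpression library 2, 3 or 5 or control library 1, 2, 3 or 6 (0.0246 to 0.124). Kalrn kept its call in 3 of the 11 fits, those without overexpression library 1 or 3 or control library 1 (0.00627 to 0.127), and its 2.72-fold lower mean was 4.24-fold lower without overexpression library 3. The median log2 fold change of the effectors was -0.05.

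Of 28 tested other cues, co-receptors and adhesion molecules of 35 listed, 1 rose and 4 fell, or 17.9%, against the same 3.72%. The way this list was chosen can raise its share, so the difference is not a result about the list. Cxcr4 and Ackr3, the signalling and scavenging receptors of the chemokine Cxcl12, both fell. Cxcr4 had 4.52, 5.00, 4.26, 11.0 and 2.30 TPM with overexpression and 8.47 to 22.6 TPM in controls; Ackr3 had 3.94, 2.63, 6.85, 6.40 and 2.10 TPM and 7.76 to 15.9 TPM. The groups of Ackr3 did not overlap, and those of Cxcr4 overlapped at 1 overexpression library. Their log2 fold changes were -1.38 ± 0.29 and -1.28 ± 0.26 (SE), with limma adjusted p of 0.0109 and 0.00844. Flrt3, an adhesion protein that binds Unc5 receptors, fell to 7.85 ± 1.46 TPM (SD, n = 5) with overexpression, against 15.0 ± 2.44 TPM (SD, n = 6) in controls, and Nell2, a ligand of Robo3, to 24.0 ± 7.63 against 41.6 ± 5.42 TPM. Ngfr, the p75 receptor, rose, with 1.29 to 3.15 TPM with overexpression and 0 to 0.469 TPM in controls; the 17.8-fold ratio of means was 48.4-fold without control library 1. Limma adjusted p were 0.00642 for Flrt3, 0.0159 for Nell2 and 0.00249 for Ngfr. Cxcr4, Ackr3 and Nell2 lost their calls when all expressed genes were kept (0.0769, 0.056 and 0.0732) and without the 4 libraries lowest in protein coding TPM (0.0765, 0.0911 and 0.0567). Ngfr passed the filter through the overexpression libraries alone. The median log2 fold change of this list was -0.13.

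The 10 neural stem and progenitor markers, which the labels call for, summed to 3615 to 5589 TPM with overexpression and 4662 to 7765 TPM in controls. Fabp7 held the largest part of this sum, averaging 2105 TPM with overexpression and 3596 TPM in controls. Vim came next and differed the other way, at 1572 and 1075 TPM. In limma Vim, an intermediate filament gene, rose (log2 fold change 0.53, adjusted p = 0.0365), and Slc1a3, a glutamate transporter gene, and Msi1, an RNA-binding protein gene, fell (-0.76 and -0.64, adjusted p = 0.00892 and 0.0433). The 7 others did not pass: Sox2 averaged 360 ± 64.3 TPM with overexpression (SD, n = 5) and 377 ± 47.5 TPM in controls (SD, n = 6), Fabp7 and Hes5 had log2 fold changes of -0.76 and -0.87 (adjusted p = 0.069 and 0.0623), and Pax6 and Prom1 averaged under 10 TPM in both groups. The 8 neuronal markers summed to 304 to 396 TPM with overexpression and 340 to 487 TPM in controls, with none called in limma. The 6 astrocyte markers summed to 88.5 to 146 and 141 to 206 TPM, with S100b higher and Aldh1l1 lower. Microglial markers summed to at most 1.99 TPM, with Cx3cr1, Aif1, C1qa, C1qb and Tyrobp at 0 in every library, and mural and meningeal markers to at most 8.70 TPM. Their part in the guidance results was not tested.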

How the data were processed

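RNA was sequenced from 11 neurosphere libraries, 5 with Klf5 overexpression and 6 controls, 1 per embryo by the count in the labels' protocol. The deposited values are TPM, computed by the authors, with 1 column per library, and depth is unknown. The rows sum to 730832 to 821967 per library with overexpression and 814208 to 846780 in controls. The mean sum was lower with overexpression, at 784942 against 830176. The submitters' processing notes name HISAT2, StringTie, HTSeq and DESeq2 and the build GRCm38.p5; the sources used here give no versions, order, annotation release or strand setting, and the labels name both a directional and another library kit with no map to libraries. Overlapping genes could therefore share reads. No changed guidance gene overlaps another tested gene, while Nrp1 overlaps Mir1903, Plxnb1 overlaps Gm7628 and Epha5 overlaps Hmgn2-ps1.

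Symbols were matched from a list of gene names for 53255 of 53453 identifiers; biotypes and coordinates come from GENCODE M21. Genes with at least 1 TPM in 5 or more libraries were tested with limma 3.58.1 (R 4.3.3) on log2(TPM + 1), with a variance trend, no covariate and Benjamini-Hochberg adjustment at 0.05. The fit was run on simulated data with independent noise of equal spread in both groups. Such data hold no shift shared by a whole library, so they cannot show how the test behaves on these libraries. No 2 libraries were duplicates (Pearson correlation of log2 values across genes 0.938 to 0.968).

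The genes, lists and tests were chosen with earlier results of these data known. Named genes were those called, the 2 most abundant and the most changed in each of 13 families, and the called genes of 2 pathway lists; other genes given, among them those with an unadjusted p under 0.05, were chosen after their values were seen. The fit was repeated with robust variances or no variance trend, with trimmed-mean, quantile or protein coding scaling, with all expressed genes or a minimum of 5 TPM, at a pseudocount or threshold of 0.1, with a replicate block, and with each library left out. Leaving out Unc50 and Unc5cl, or the 4 libraries lowest in protein coding TPM (2 per group), was added after seeing the data.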

Additional observations from a re-analysis of the deposited data

Results flagged for a closer look

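Of 80 groups of libraries checked over 40 named genes, 5 held a library apart from the rest of its group, where chance gives about 1 in 20. Epha5 stood at 4.49 TPM in overexpression library 2, against 1.15 to 1.85 TPM in the other 4. In control library 6, Efnb2 had 15.2 TPM against 8.47 to 10.74 TPM in the other controls, Epha4 3.26 against 0.717 to 1.59 TPM, and Robo2 5.78 against 1.36 to 2.96 TPM. Ngfr had 0.469 TPM in control library 1, against 0 to 0.112 TPM in the other controls.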

How the results depend on the processing

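Depth is unknown, so no counting limit can be given for low genes such as Sema3b and Sema3a. Nrp2, Plxnb3 and Sema3b were called under each alternative in which they were tested, and Klf5 under all. For Sema3b, which reached 1 TPM only in overexpression libraries, the filter had fixed the direction. Sema3a lost its call without a filter (adjusted p = 0.0634) and without the 4 libraries of low protein coding TPM (0.103), and Efna3 in the same fits (0.0775 and 0.0911). The filter of 5 TPM left 33 guidance genes and removed Sema3a, Sema3b and Efna3, so that 2 were called higher and 0 lower; without a filter 0 were called lower, and without the 4 libraries 0. Lower calls numbered 2 with the protein coding total and without a variance trend, and 3 at a threshold of 0.1. Leaving out Unc50 and Unc5cl changed neither count.

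Over all genes 310 were higher and 194 lower; the splits were 434 and 302 with trimmed-mean scaling, 421 and 311 with quantile normalization, and 417 and 310 with the protein coding total. Lower calls were 95 without a filter, 87 without the 4 libraries, and 123 to 213 with each library left out, lowest without overexpression library 2 (123) and control library 3 (126). Guidance genes called higher ranged from 3 to 5 and those called lower from 1 to 2 in those 11 fits. The higher count was also 3 without a filter and without the 4 libraries.

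Of the effectors, the higher count was 0 without a filter, and 2 with trimmed-mean scaling, the protein coding total, robust variances and the threshold of 0.1. The lower count was 0 with a pseudocount of 0.1, without a filter and without a variance trend, and 1 with the filter of 5 TPM. With a library left out these counts ran from 0 to 1 and from 0 to 2. For the other cues, 1 was lower without a filter, 0 higher with the filter of 5 TPM, and 2 higher with the protein coding total.

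The labels do not state that the numbers pair embryos, so the main fit did not take them as pairs. Same-numbered libraries correlated in their deviations at -0.04 to 0.30, and 1 of 5, number 1 at 0.30, correlated best with its own number. These values do not settle whether the numbers are pairs. With the replicate block on 10 libraries, 5 guidance genes were called, the same 5; the same libraries with no block gave 6, with Robo2 added. Both fits gave 0 effectors higher and 0 lower.

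Genes near 0, none of them called, changed sign: Epha4 was 0.016 with trimmed-mean scaling and 0.015 with the protein coding total, and 0.14 with the block and without it on 10 libraries; Unc50 was -0.013 in the last 2. Efna2 was 0.0031 and 0.0058 with trimmed-mean and protein coding scaling. Ntn1 was 0.0014 with the protein coding total, 0.0086 with quantile normalization and 0.28 without the 4 libraries, where Sema6a was 0.13. With each library left out the log2 fold change ran from -0.089 to 0.043 for Unc50, -0.13 to 0.14 for Epha4, -0.019 to 0.15 for Plxna1, -0.10 to 0.12 for Efnb1, -0.0093 to 0.20 for Plxnb2, -0.10 to 0.031 for Efna2, -0.15 to 0.088 for Sema6a, -0.16 to 0.063 for Ntn1 and -0.15 to 0.12 for Efnb3. The cause of these changes was not tested.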
